A study of Rattus norvegicus with 18 samples.

Results

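The genes described here are 32 components of the protein-folding machinery of the endoplasmic reticulum (ER) and of the unfolded protein response, a list of symbols matched by name to the deposited table. They were found in a table of 33898 rat genes, and all 32 passed the filter on low counts, as did 14184 genes in all. The counts come from RNA sequencing of nucleus pulposus cells, which lie in the soft centre of the spinal disc, taken from 8-week-old Sprague Dawley rats and cultured with 10% fetal bovine serum. The treated cells received PDS (pyridostatin), Phen-DC3 or Braco-19 for 24 h, and the controls are labelled only as controls. All 3 compounds are ligands of G-quadruplexes, folds that guanine-rich DNA and RNA can take up. No dose is stated in the labels. Each compound has 3 libraries beside 3 control libraries of its own, which gives 6 groups and 18 libraries. The control libraries whose titles name no compound were set against Braco-19 by elimination. No allele or other agent is labelled in any group. The repeats are called biological, but nothing says whether they came from separate animals or cultures, so p-values measure only the spread between these libraries, which may be technical.

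Proteins that enter the secretory pathway are folded in the ER by chaperones and by enzymes that form disulfide bonds and isomerise prolines. When unfolded proteins accumulate, the membrane sensors ATF6, IRE1 (gene Ern1) and PERK (gene Eif2ak3) start the unfolded protein response, in which ATF6 and spliced XBP1 raise transcription of chaperone and degradation genes while PERK slows translation. Disc cells secrete large amounts of collagen and proteoglycan, and collagen needs dedicated helpers such as HSP47 (gene Serpinh1). Counts per gene do not show the splicing of Xbp1 messenger RNA, the cleavage of ATF6 or the phosphorylation of PERK and IRE1.

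In 24 of the 32 genes a RefSeq promoter (rat build GRCr8, 250 bases before to 50 after the annotated start) was in the table used, and these were searched on both strands for the elements through which the response is known to act. The ER stress response element (ERSE; CCAAT, 9 bases, CCACG) was found in 7 of the 24 promoters (29.2%), against 21 of 27457 rat promoters of the same length (0.0765%). The second form (ERSE-II; ATTGG, 1 base, CCACG) was found in 3 of the 24 (12.5%), against 0.0546% of all promoters, and the core of the unfolded protein response element (TGACGTGG) in 1 of the 24 (4.17%), against 0.637%. Together, 10 of the 24 (41.7%) held at least 1 of these sequences, against 0.765% of all promoters. The list was chosen for its part in this response, so the higher shares follow from that choice and are not a test. The matches are shown because they mark which of the genes carry the known target sequence; the capitals are the fixed letters, and each is written 5′ to 3′ on the strand where it reads CCAAT or ATTGG.
Hspa5, ERSE: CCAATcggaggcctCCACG
Xbp1, ERSE: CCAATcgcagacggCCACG
Hsp90b1, upstream ERSE: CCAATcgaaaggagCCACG
Hsp90b1, downstream ERSE: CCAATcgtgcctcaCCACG
Dnajc3, ERSE: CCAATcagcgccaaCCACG
Calr, ERSE: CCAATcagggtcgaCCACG
Canx, ERSE: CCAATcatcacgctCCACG
Creld2, ERSE: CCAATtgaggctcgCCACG
Hyou1, upstream ERSE-II: ATTGGcCCACG
Hyou1, downstream ERSE-II: ATTGGgCCACG
Dnajb11, ERSE-II: ATTGGcCCACG
Herpud1, ERSE-II: ATTGGgCCACG
The ERSE of Hspa5 lies 43 to 25 bases before the start, and those of Xbp1 and Hsp90b1 lie 65 to 47, 176 to 158 and 72 to 54 bases before it. The TGACGTGG of Hyou1 overlaps the upstream ERSE-II of that gene. A match is a description of these letters and not a measured binding site.

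A pair of whole promoters is given because the values below turn on these genes: Hspa5, the most widely used readout of the response, and Serpinh1, which had the larger of the falls under PDS. In Hspa5 (chr3:38452766.0-38453065.0, plus strand) the capitals mark the ERSE. In Serpinh1 (chr1:163062927.0-163063226.0, minus strand), which held none of the 3 response elements, the capitals mark a G-quadruplex pattern, defined as 4 runs of at least 3 G with 1 to 7 bases between them.
Hspa5 promoter: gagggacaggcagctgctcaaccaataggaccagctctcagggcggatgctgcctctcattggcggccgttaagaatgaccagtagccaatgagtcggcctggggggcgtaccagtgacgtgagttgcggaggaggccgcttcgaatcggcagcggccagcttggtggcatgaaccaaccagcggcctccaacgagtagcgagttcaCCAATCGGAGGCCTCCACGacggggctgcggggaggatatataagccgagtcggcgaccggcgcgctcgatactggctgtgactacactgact
Serpinh1 promoter: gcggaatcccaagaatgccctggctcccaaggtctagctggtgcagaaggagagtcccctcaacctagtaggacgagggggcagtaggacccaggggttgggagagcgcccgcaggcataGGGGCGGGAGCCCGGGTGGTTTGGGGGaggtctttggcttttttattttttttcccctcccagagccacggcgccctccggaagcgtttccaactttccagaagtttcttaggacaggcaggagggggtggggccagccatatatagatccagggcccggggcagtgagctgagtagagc
The G-quadruplex pattern was found on either strand in 4 of the 24 promoters (16.7%), namely those of Serpinh1, Sel1l, Edem1 and Pdia4, against 17% of all 27457 promoters. Atf6, Ern1, Pdia3, Pdia6, Manf, Sec61a1, Sec24d and Fkbp10 were not in the promoter table.

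The libraries held 15715121 to 18369443 counts assigned to genes, and levels are given as CPM, counts scaled to a common library size by the trimmed mean of M values (TMM). Genes whose model is longer than 5000 bases took 7.42% to 10.7% of the counts in the 12 PDS and Phen-DC3 libraries with their controls, and 23.3% to 25.4% in the 6 Braco-19 and Braco-19 control libraries. The fibronectin gene Fn1 alone took 0.636% to 1.32% of the counts in those 12 libraries and 6.49% to 7.77% in those 6. The summed level of the 32 genes was 16746 ± 87.7 CPM in PDS and 16645 ± 201 CPM in its controls, 16626 ± 147 CPM in Phen-DC3 and 16103 ± 206 CPM in its controls, and 12184 ± 418 CPM in Braco-19 and 12957 ± 190 CPM in its controls (SD, n = 3 each). Of the nucleus pulposus markers, Pax1 was at 76.1 to 111 CPM and Foxf1 at 35.1 to 44.2 CPM over the group means, Acan, the large disc proteoglycan, was at 0.140 to 2.85 CPM, and Tbxt, Krt19, Shh and Noto were at 0 in every library. Ptprc and Cd163 (leukocytes) and Cdh5 and Cldn5 (endothelium) were at 0, but some other leukocyte and endothelial markers were not. Of the macrophage and leukocyte markers, Cd14 was at 34.0 to 116 CPM and Cd68 at 1.07 to 4.005 CPM over the group means. Of the endothelial markers, Tek was at 0.0596 to 1.018 CPM and Vwf at 0.119 to 0.351 CPM. In bulk RNA, fewer cells of a type and less RNA per cell cannot be told apart.

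Divided by the length of the gene model, the mean level over all 18 libraries ran from 1209 CPM per kb for P4hb, a disulfide isomerase and subunit of the collagen prolyl hydroxylase, to 4.04 CPM per kb for Ern1. After P4hb came Calr, the calcium-binding lectin chaperone, at 802 CPM per kb, Pdia3, the isomerase that works with it, at 598, and the collagen helpers Serpinh1 at 544 and Ppib at 529. Hspa5, which encodes BiP, the main ER HSP70 and the protein that holds the sensors inactive, stood at 343 CPM per kb and Hsp90b1, the ER HSP90, at 334. At the low end of the scale per length were Dnajb9 at 14.8, Syvn1 at 10.7, Eif2ak3 at 10.6 and Ern1 at 4.04 CPM per kb, so all 3 sensors were among the 6 lowest together with Hspa13. Spread between replicates was small: the median coefficient of variation over the 32 genes was 3.12% in PDS and 5.51% in its controls, 6.43% in Phen-DC3 and 7.89% in its controls, and 5.52% in Braco-19 and 3.12% in its controls.

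Under PDS the collagen helpers Serpinh1 and Fkbp10 were lower than in the PDS controls, and the other 30 genes did not pass the test. Of the 32, none was called higher and 2 were called lower, Serpinh1 and Fkbp10, at a Benjamini-Hochberg adjusted p under 0.05 over all genes (edgeR quasi-likelihood test). Over all 14184 genes tested, 5.13% were called higher and 2.96% lower (728 and 420 genes, against 575 and 527 with upper-quartile scaling). The PDS and control libraries did not overlap in 16 of the 32 genes, against 33.3% of all genes, and the median log2 change was 0.08 for the 32 genes and 0.02 for all genes. Every 95% interval lay between a log2 change of -1 and 1, and 28 of the 32 lay between -0.5 and 0.5, the other four being Ern1, Dnajb9, Sdf2l1 and Serpinh1.

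Serpinh1 encodes HSP47, the collagen-specific chaperone that stabilises the procollagen triple helix; the count table places it on chromosome 1, bases 164301010 to 164308317, on the minus strand. It was at 1209, 1212 and 1143 CPM in the PDS libraries, against 1564, 1641 and 1673 CPM in their controls. All 3 PDS libraries were below all 3 controls. Expressed as a ratio, the PDS level was 0.731 of that in controls (log2 change -0.45 ± 0.12 SE, adjusted p = 0.026, edgeR). Fkbp10, a prolyl isomerase of the ER that also acts on collagen (chromosome 10, bases 88326080 to 88338207, plus strand), was at 539, 531 and 524 CPM in the PDS libraries, against 594, 641 and 590 CPM in controls. The groups did not overlap, and the log2 change was -0.20 ± 0.06 (edgeR adjusted p = 0.049). Ppib, which encodes the prolyl isomerase cyclophilin B of the same collagen complex, had a log2 change of -0.11 with a 95% interval of -0.25 to 0.03 and was not called. Leaving out 1 library ended the Serpinh1 call in 5 of 6 cases (adjusted p of 0.065 to 0.11, with a log2 change of -0.43 to -0.48 over all 6), the exception being PDS control replicate 1, and the Fkbp10 call in all 6 (adjusted p of 0.065 to 0.21).

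Hspa5 was not called, with 940, 930 and 983 CPM in the PDS libraries, against 934, 864 and 936 CPM in controls. The libraries of both groups overlapped, and the log2 change was 0.06 with a 95% interval of -0.06 to 0.18. Dnajb9, the ER J protein ERdj4 that helps in degradation and in turning off IRE1, was at 36.6, 40.6 and 46.6 CPM in the PDS libraries, against 33.4, 26.1 and 32.9 CPM in controls. The groups did not overlap, but the log2 change of 0.42 ± 0.13 missed the threshold (edgeR adjusted p = 0.06). Atf6 had 81.6, 91.0 and 88.7 CPM in PDS, against 75.7, 73.9 and 67.9 CPM in controls, again without overlap and without a call (log2 change 0.26 ± 0.08, adjusted p = 0.059). Of the other sensors, Eif2ak3 had a log2 change of 0.19 (95% interval 0.01 to 0.38) and Ern1 of 0.25 (-0.03 to 0.52), and Xbp1, the transcription factor that IRE1 activates, of 0.11 (-0.03 to 0.24). When only the 6 PDS and PDS control libraries were fitted, Atf6 (adjusted p = 0.027), Dnajb9 (0.016) and the PERK inhibitor Dnajc3 (0.038) were called higher and the HSP70 cofactor Sdf2l1 (0.0012) was called lower. Of the 13187 genes in that fit, 987 were called higher and 1066 lower. DESeq2 called Dnajb9 (adjusted p = 0.038) and P4hb (0.034) higher, and without PDS control replicate 3 edgeR called Dnajc3 higher (adjusted p = 0.037). Over all genes DESeq2 called 811 higher and 592 lower, and edgeR without that library 480 and 271.

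**Figure D1:**
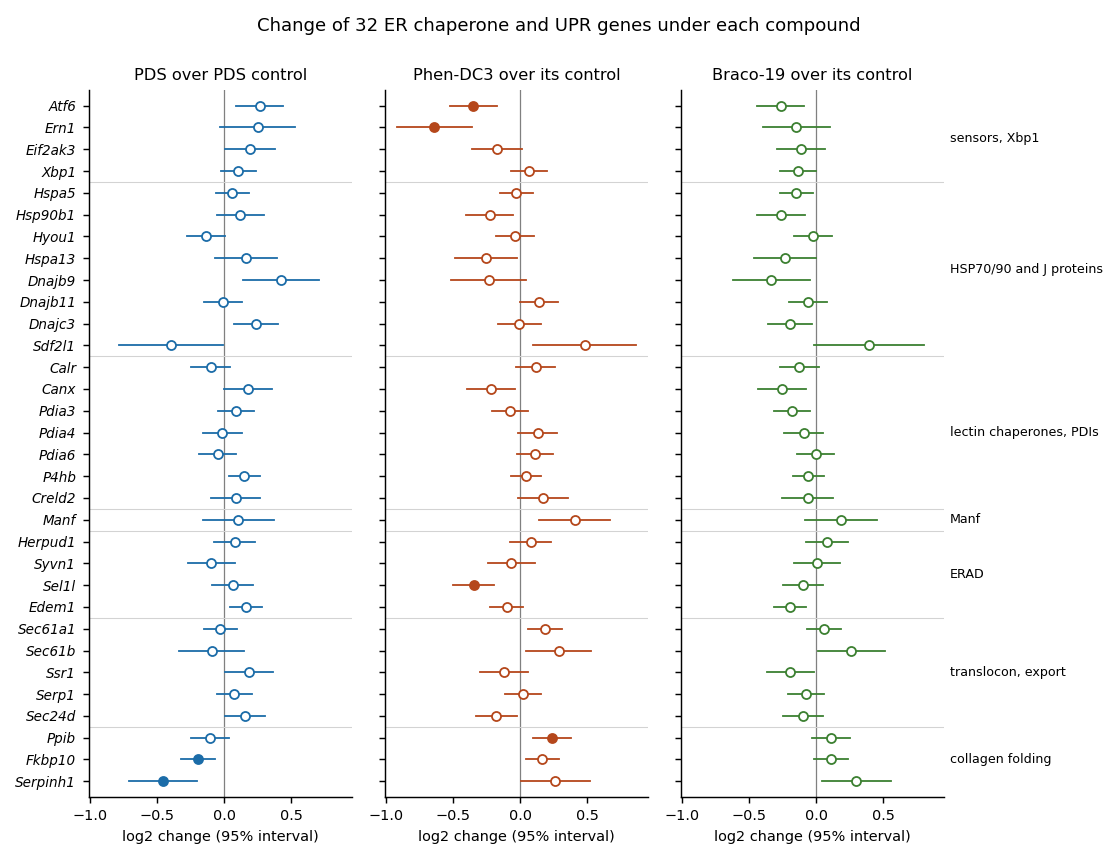
Log2 change of each of the 32 genes (rows, grouped by role) under PDS, Phen-DC3 and Braco-19 against the controls of each compound; points are edgeR estimates, lines are 95% intervals and filled points are called at an adjusted p under 0.05. Serpinh1 and Fkbp10 are filled under PDS, Atf6, Ern1, Sel1l and Ppib under Phen-DC3, and none under Braco-19.

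The remaining genes were not called under PDS in any role. Among the other HSP70 and HSP90 partners, Dnajc3 (0.23, adjusted p = 0.071) and Sdf2l1 (-0.40, adjusted p = 0.2) had log2 changes past 0.2 in size, and Hsp90b1 (0.12), Hspa13 (0.16), Hyou1 (-0.14) and Dnajb11 (-0.01) lay closer to 0. Hyou1 is the nucleotide exchange factor of BiP, and Dnajb11 one of its J proteins. The 7 lectin chaperones and disulfide isomerases ranged from -0.10 (Calr) to 0.18 (Canx, the membrane-bound relative of calreticulin), with P4hb at 0.15 (adjusted p = 0.094), Pdia3 at 0.09, Creld2 at 0.08, Pdia4 at -0.01 and Pdia6 at -0.05. Of the 4 genes of ER-associated degradation, Edem1, a mannosidase-like lectin that removes misfolded glycoproteins, had 0.16 (adjusted p = 0.094), Herpud1 0.08, the ubiquitin ligase Syvn1 -0.10 and its partner Sel1l 0.06. Among the translocon and export genes, Ssr1 had 0.18, the COPII coat gene Sec24d 0.15, Serp1 0.07, Sec61a1 -0.03 and Sec61b -0.09, and Manf, a secreted stress factor, had 0.11. The nerve and glia markers (6 of 6 measured, Sox10 at 0) summed to 19.4 to 21.3 CPM in PDS and 31.7 to 34.1 CPM in PDS controls, and their part in these changes was not tested.

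Phen-DC3 gave 4 calls among the 32 genes: Ppib was higher and Ern1, Sel1l and Atf6 were lower. Of all genes tested, 2.19% were called higher and 5.82% lower (311 and 825 of 14184 genes). These shares depended on the fit. The counts were 836 and 1270 with DESeq2, 22 and 25 with the length correction, and 1 and 0 when only the 6 Phen-DC3 and control libraries were fitted. Leaving out 1 library gave from 0 and 0 (Phen-DC3 replicate 1) to 1451 and 1864 (Phen-DC3 control replicate 3). The libraries of the groups did not overlap in 9 of the 32 genes, against 22.1% of all genes, and the median log2 change was 0.01 for the 32 genes and -0.01 for all genes. All 32 intervals lay between -1 and 1, and 25 lay between -0.5 and 0.5.

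Ern1, the gene of IRE1, the kinase and endonuclease that splices Xbp1 (chromosome 10, bases 94588555 to 94681914, minus strand), was at 9.13, 12.2 and 14.1 CPM in the Phen-DC3 libraries, against 19.5, 18.96 and 16.8 CPM in controls. All treated libraries were below all controls, at a ratio of 0.642 (log2 change -0.64 ± 0.13, edgeR adjusted p = 0.013). Atf6, the sensor that is cleaved in the Golgi to release a transcription factor (chromosome 13, bases 89055983 to 89242443, minus strand), was at 61.2, 69.9 and 73.2 CPM in Phen-DC3, against 97.1, 84.0 and 78.7 CPM in controls. These groups did not overlap either (log2 change -0.35 ± 0.08, adjusted p = 0.022). Sel1l, the adaptor of the degradation ligase (chromosome 6, bases 115572649 to 115616859, minus strand), was at 84.0, 91.6 and 99.1 CPM in Phen-DC3, against 127.5, 112 and 109 CPM in controls, without overlap (log2 change -0.34 ± 0.07, edgeR adjusted p = 0.015). Ppib (chromosome 8, bases 71719563 to 71725562, plus strand) was at 716, 689 and 665 CPM in Phen-DC3, against 532, 597 and 626 CPM in controls. Every treated library was above every control (log2 change 0.24 ± 0.07, adjusted p = 0.039).

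The direction of the Phen-DC3 values followed the length of the gene model. All 8 genes with a model of at least 4000 bases had a log2 change below 0 (median -0.24), and 10 of the 12 under 2000 bases had one above 0 (median 0.13). Across the 32 genes, Spearman's rho between length and log2 change was -0.77, and across all 14184 genes -0.44; the genes share the same libraries and are not independent replicates. The share of counts in genes over 5000 bases was 7.99% ± 0.52 in Phen-DC3 and 9.99% ± 0.74 in its controls (SD, n = 3 each). After the length trend of each library was removed, none of the 32 genes was called, and the log2 changes were -0.31 for Ern1 (6916 bases), -0.04 for Sel1l (6402 bases), -0.15 for Atf6 (4684 bases) and 0.07 for Ppib (980 bases).

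The 4 Phen-DC3 calls also depended on which libraries were fitted. None of the 4 held without Phen-DC3 control replicate 1 or without Phen-DC3 replicate 1 or 2, and only Sel1l held without control replicate 2 (adjusted p = 0.044). Without control replicate 3, 6 genes were higher and 8 lower, against 1451 and 1864 of all genes. Without Phen-DC3 replicate 3, 6 were higher and 7 lower, against 1049 and 1604 of all genes. A fit of only the 6 Phen-DC3 and control libraries called none of the 32 (adjusted p of 0.2 to 0.22 for the 4 genes). DESeq2 called 5 higher and 3 lower.

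**Figure D2:**
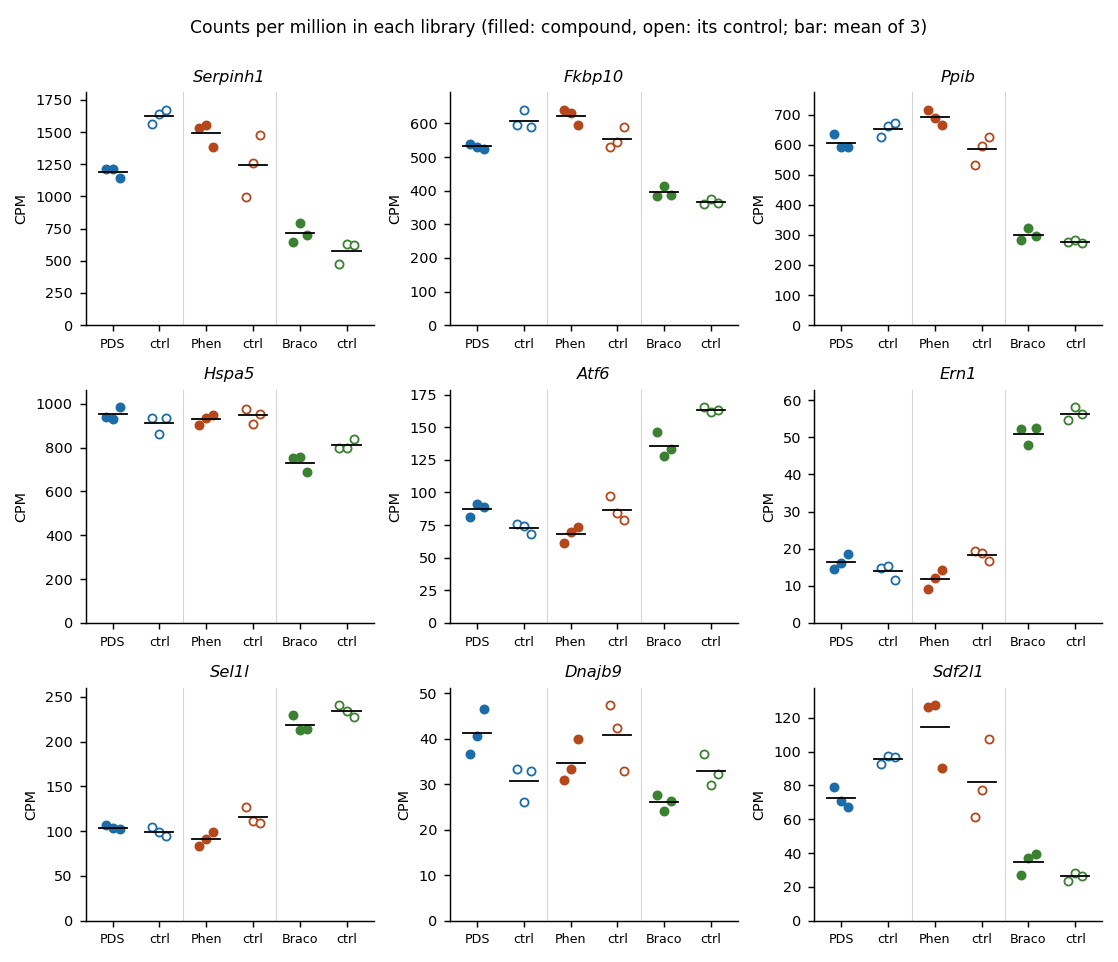
CPM of 9 of the genes in each of the 18 libraries; filled points are treated libraries, open points their own controls, and bars the mean of 3, with the vertical axis from 0. Serpinh1 lies at 1143 to 1212 CPM in PDS and at 1564 to 1673 CPM in its controls, and the Braco-19 libraries and their controls lie apart from the other 4 groups in most panels.

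None of the other 28 genes was called under Phen-DC3. Hspa5 was at 903, 935 and 950 CPM in Phen-DC3, against 978, 909 and 955 CPM in controls. These overlapped, and its log2 change was -0.03 (95% interval -0.15 to 0.10). Manf was at 309, 334 and 243 CPM in Phen-DC3, against 184, 214 and 272 CPM in controls; the third library of each group fell within the range of the other group, and the gene was not called (0.40 ± 0.13, adjusted p = 0.054). Sdf2l1 had the widest spread between Phen-DC3 control libraries, with 126, 127 and 90.2 CPM in Phen-DC3, against 61.5, 77.3 and 107 CPM in controls (0.48 ± 0.18, adjusted p = 0.099). Serpinh1 was at 1529, 1558 and 1382 CPM in Phen-DC3, against 992, 1259 and 1474 CPM in controls, which overlapped (0.26, 95% interval 0.01 to 0.52), and Fkbp10 had 0.16 (0.04 to 0.29). Among the rest, Sec61b (0.29), Sec61a1 (0.18), Creld2 (0.17), Dnajb11 (0.14), Pdia4 (0.13), Pdia6 (0.11), Calr (0.11), Herpud1 (0.08), Xbp1 (0.06), P4hb (0.04) and Serp1 (0.02) had log2 changes above 0. Hspa13 (-0.25), Dnajb9 (-0.23), Hsp90b1 (-0.23), Canx (-0.22), Sec24d (-0.18), Eif2ak3 (-0.17), Ssr1 (-0.12), Edem1 (-0.10), Pdia3 (-0.08), Syvn1 (-0.07), Hyou1 (-0.04) and Dnajc3 (-0.01) had log2 changes below 0, and none of these 23 was called.

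Braco-19 gave no call among the 32 genes, and 0.275% of all genes (39 of 14184) were called in either direction. At an unadjusted p under 0.05, 2 of the 32 were higher and 9 lower, and the all-gene share at that p was not counted. DESeq2 called 1 lower (Edem1, log2 change -0.20, adjusted p = 0.022), against 214 higher and 145 lower of all 14184 genes. A fit of only the 6 libraries called 3 lower (Atf6, Hsp90b1 and Canx, edgeR adjusted p of 0.036 to 0.046), against 433 higher and 348 lower of 13477 genes. The libraries did not overlap in 17 of the 32 genes, against 28.1% of all genes. The log2 change was below 0 for 23 of the 32, with a median of -0.09 for the 32 genes and 0.00 for all genes. Every interval lay between -1 and 1, and 28 lay between -0.5 and 0.5.

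Hspa5 was at 750.5, 755 and 688 CPM in Braco-19, against 796, 796 and 837 CPM in its controls. All treated libraries were below all controls, yet the change was small and not called (log2 change -0.15, 95% interval -0.27 to -0.02, edgeR adjusted p = 0.2). Hsp90b1 was at 1210, 1109 and 1018 CPM in Braco-19, against 1387, 1279 and 1335 CPM in controls, without overlap (-0.26 ± 0.08, adjusted p = 0.15). Atf6 was at 146, 128 and 133 CPM in Braco-19, against 165, 161 and 163 CPM in controls, again without overlap (-0.26 ± 0.08, adjusted p = 0.14). Edem1 (-0.19), Canx (-0.25), Pdia3 (-0.18), Ssr1 (-0.19), Dnajc3 (-0.19) and Dnajb9 (-0.33) likewise had treated libraries below all controls and no call. Serpinh1 was at 642, 796 and 699 CPM in Braco-19, against 478, 634 and 626 CPM in controls, above them without overlap and not called (0.30 ± 0.12, adjusted p = 0.21). All 7 lectin chaperones and isomerases and the 3 sensors and Xbp1 had a log2 change below 0, from -0.26 to 0.00, and the 3 collagen helpers had one above 0, from 0.11 to 0.30. Among the chaperones of the HSP70 and HSP90 families and their partners, 7 of 8 were below 0 and Sdf2l1 stood at 0.39, while the degradation genes ran from -0.19 to 0.08 and the translocation and export genes from -0.19 to 0.26. Manf had a log2 change of 0.19 under Braco-19.

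The untreated groups were compared with each other to show how far baselines lie apart. Between the Phen-DC3 controls and the PDS controls, none of the 32 genes was called higher and 1 was lower, against 4.5% and 1.59% of all genes. That gene was Sec61a1, the channel subunit of the translocon, at 540, 537 and 595 CPM in Phen-DC3 controls and 652, 663 and 660 CPM in PDS controls (log2 change -0.24 ± 0.06, adjusted p = 0.027, edgeR). The call was lost without PDS control replicate 2 or 3 or without Phen-DC3 control replicate 1 or 2 (adjusted p of 0.063 to 0.13). At an unadjusted p under 0.05, 7 of the 32 were higher and 6 lower, and the all-gene share at that p was not counted. The 3 collagen helpers were not called and had log2 differences of -0.39 to -0.13. Serpinh1 averaged 1242 ± 241 CPM in Phen-DC3 controls, 1626 ± 56.1 CPM in PDS controls and 1188 ± 39.1 CPM in PDS (SD, n = 3 each). Fkbp10 averaged 555 ± 31.1, 608 ± 28.15 and 531 ± 7.07 CPM in the same groups. For both genes the Phen-DC3 controls thus lay nearer to PDS than to the PDS controls on average.

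The Braco-19 controls differed from the PDS controls far more. Of the 32 genes, 12 were higher and 18 lower, against 37.7% and 35.6% of all genes, and only Pdia3 and Dnajb9 were not called. Ern1 was at 54.5, 58.0 and 56.3 CPM in Braco-19 controls and at 14.7, 15.3 and 11.6 CPM in PDS controls, 4.05-fold higher (log2 difference 2.02 ± 0.13, edgeR adjusted p = 1.8e-11). Sel1l (1.23), Atf6 (1.17), Eif2ak3 (1.05) and Hyou1 (0.92) followed, so that all 3 sensors were higher in Braco-19 controls. Sdf2l1 was at 23.7, 28.4 and 26.7 CPM in Braco-19 controls and at 92.5, 97.5 and 96.6 CPM in PDS controls, a ratio of 0.275 (log2 difference -1.86 ± 0.19, adjusted p = 2.5e-07). Sec61b (-1.54), Serpinh1 (-1.49), Ppib (-1.23), Manf (-1.17) and Xbp1 (-0.85) were also lower, and Hspa5 was lower by less (-0.17 ± 0.06, adjusted p = 0.014). Between the Phen-DC3 controls and the Braco-19 controls, 19 of the 32 were higher and 10 lower, against 34.6% and 34.9% of all genes.

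These baseline differences also ran with gene length. All 8 genes of at least 4000 bases were higher in Braco-19 controls than in PDS controls (median log2 difference 0.99) and all 12 under 2000 bases were below 0 (median -0.73), with Spearman's rho of 0.84 across the 32 genes and 0.50 across all genes. After the length correction 8 were higher and 19 lower, against 4527 and 4999 of all 14184 genes. Ern1 remained higher by 0.59, and Serpinh1 (-1.32), Sdf2l1 (-1.20), Sec61a1 (-0.97), Fkbp10 (-0.93) and P4hb (-0.69) remained lower. Sel1l (-0.06) and Hyou1 (0.12) were then not called, and Canx changed sign, with 0.38 before the correction and -0.52 after it. The summed level of the fibroblast and annulus markers (8 of 9 measured, Tnmd at 0) was 5347 to 6575 CPM in Braco-19 controls and 2420 to 2893 CPM in PDS controls. Col1a1 made up most of it (4855 and 1356 CPM on average in Braco-19 controls and PDS controls), while Thy1 (560 and 935 CPM) and Scx (47.4 and 108 CPM) were lower on average in Braco-19 controls. The summed level of the macrophage and leukocyte markers (10 of 10 measured, Ptprc, Cd163 and Cd3e at 0) was 34.5 to 42.4 CPM in Braco-19 controls and 108 to 114 CPM in PDS controls. Cd14 made up most of it (34.0 and 110 CPM on average in Braco-19 controls and PDS controls), while Cd68 (2.57 and 1.07 CPM) and Csf1r (0.801 and 0.161 CPM) were higher on average in Braco-19 controls. The part of these markers in the differences was not tested. The labels give no batch, so a batch and the control group cannot be told apart.

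**Figure D3:**
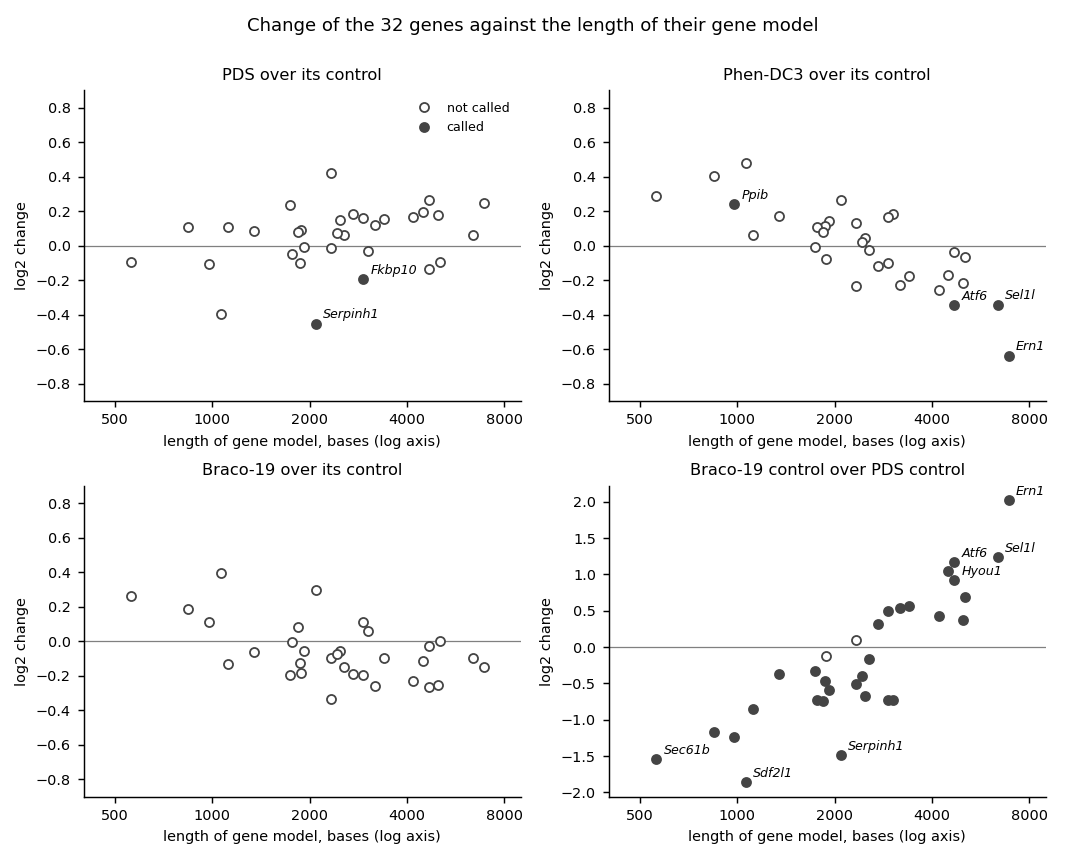
Log2 change of the 32 genes against the length of their gene model (log axis) for each compound over its controls and for the Braco-19 controls over the PDS controls; filled points are called at an adjusted p under 0.05. Longer genes tend to lie lower under Phen-DC3 and higher in Braco-19 controls, with Spearman's rho of -0.77 and 0.84, and single genes depart from the trend.

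The compounds were then compared with each other, each change being taken against its own controls, in 3 pairs over all genes. PDS and Phen-DC3 differed for 13 of the 32 genes: the PDS change was higher for 9 and lower for 4, against 12.4% and 7.76% of all genes. The sensors Ern1 (0.89 ± 0.19), Atf6 (0.61 ± 0.12) and Eif2ak3 (0.37 ± 0.13) had a higher change under PDS, as did Dnajb9 (0.66 ± 0.19), Sel1l, Canx, Hsp90b1, Sec24d and Edem1 (0.26 to 0.41). For Serpinh1 the log2 change was -0.45 under PDS and 0.26 under Phen-DC3, a difference of -0.72 ± 0.17 (edgeR adjusted p = 0.0099). Sdf2l1 had -0.40 under PDS and 0.48 under Phen-DC3 (difference -0.88 ± 0.25, adjusted p = 0.027), and Fkbp10 and Ppib also differed (-0.36 ± 0.08 and -0.34 ± 0.10). Each difference also takes in the gap between the control groups. In PDS controls and Phen-DC3 controls, Ern1 averaged 13.9 and 18.4 CPM, Atf6 72.5 and 86.6, Dnajb9 30.8 and 40.9, and Serpinh1 1626 and 1242. In PDS and Phen-DC3 they averaged 16.5 and 11.8, 87.1 and 68.1, 41.3 and 34.7, and 1188 and 1489.5 CPM. None of these genes was called between the control groups. With the length correction the PDS change was higher for 3 (Ern1, Atf6 and Dnajb9) and lower for 5 (Sdf2l1, Serpinh1, Fkbp10, Hyou1 and Sec61a1), and the difference for Sel1l was 0.01. Of all 14184 genes, 964 were higher and 924 lower with that correction. Leaving out PDS control replicate 2 or 3, PDS replicate 3, Phen-DC3 control replicate 1 or 2, or Phen-DC3 replicate 1 or 2 left 3 to 5 genes higher, and the differences for Atf6, Ern1, Sel1l, Serpinh1 and Fkbp10 were called without each of the 12 libraries in turn.

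PDS and Braco-19 differed for 9 of the 32 genes, 7 higher and 2 lower, against 7.28% and 6.75% of all genes. Dnajb9 had a log2 change of 0.42 under PDS and -0.33 under Braco-19, a difference of 0.76 ± 0.19 (edgeR adjusted p = 0.016). Atf6 (0.53 ± 0.12), Canx (0.43 ± 0.12), Dnajc3 (0.43 ± 0.11), Hsp90b1 (0.38 ± 0.12), Ssr1 (0.38 ± 0.12) and Edem1 (0.36 ± 0.08) also had the higher change under PDS. Serpinh1 had -0.45 under PDS and 0.30 under Braco-19 (difference -0.75 ± 0.17, adjusted p = 0.01), and Fkbp10 differed by -0.31 ± 0.08. With the length correction, 9 were higher and 3 lower, against 1032 and 974 of all 14184 genes. Leaving out PDS control replicate 2, PDS replicate 3, Braco-19 control replicate 1 or Braco-19 replicate 2 or 3 left 2 to 4 genes higher, and the differences for Atf6, Edem1 and Serpinh1 were called without each of the 12 libraries in turn. Both sets of differences use the same 6 PDS and PDS control libraries, so they are not independent of each other.

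No difference between Phen-DC3 and Braco-19 was called on these genes, since none of the 32 was called, against 0.0494% of all genes (7 of 14184) called in either direction. At an unadjusted p under 0.05, 3 of the 32 were higher and 2 lower, and the all-gene share at that p was not counted. All 32 intervals of the difference lay between -1 and 1 and 29 between -0.5 and 0.5, the exceptions being Ern1, Sdf2l1 and Manf. For Serpinh1 the interval was -0.40 to 0.32 and for Hspa5 -0.06 to 0.29, and a missed threshold does not show that the compounds act alike.

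**Figure D4:**
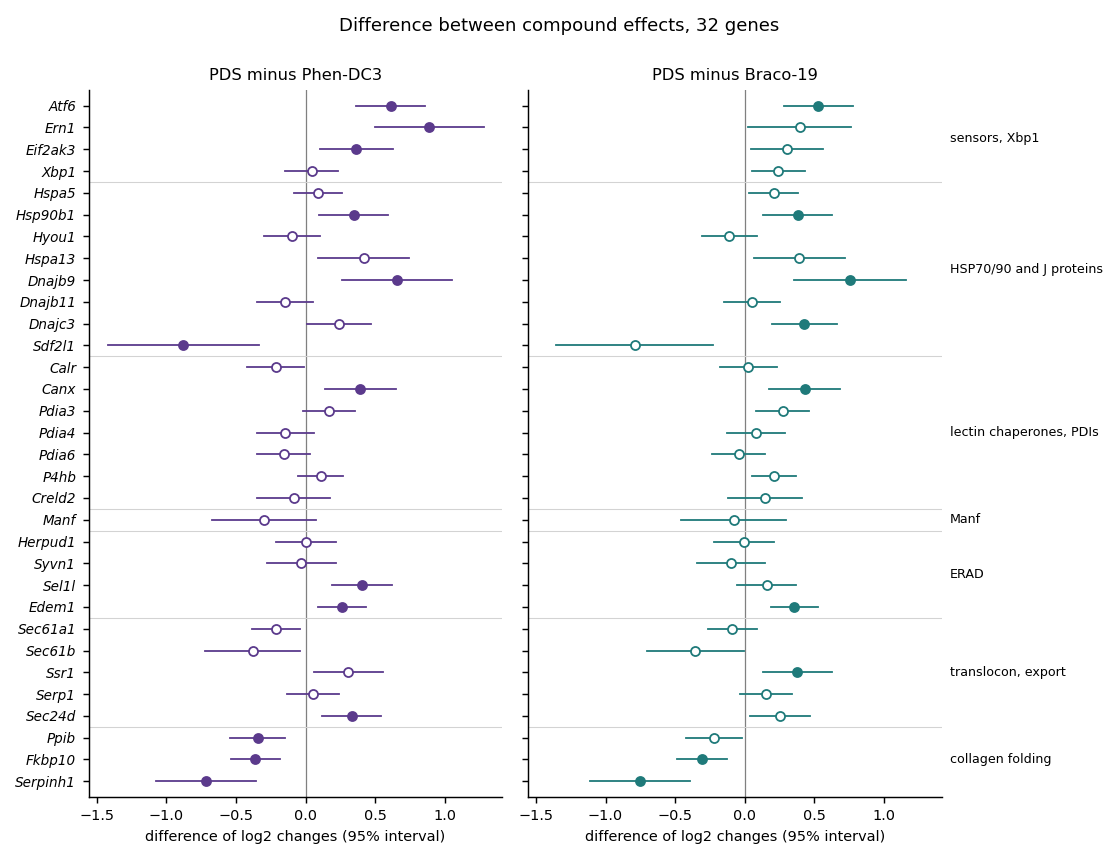
Difference between the log2 change under PDS and that under Phen-DC3 (left) or Braco-19 (right) for each of the 32 genes, with 95% intervals; filled points are called at an adjusted p under 0.05. Serpinh1 lies at -0.72 and -0.75, and Dnajb9 at 0.66 and 0.76.

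The 10 genes with an ERSE, ERSE-II or TGACGTGG in the promoter had a median log2 change of 0.08 under PDS, 0.03 under Phen-DC3 and -0.13 under Braco-19. None of the 10 was called under a compound, a count too small to read against the all-gene shares of 5.13% higher and 2.96% lower under PDS, 2.19% and 5.82% under Phen-DC3 and 0.275% in either direction under Braco-19. The 14 with a promoter and none of these sequences had medians of 0.07, -0.02 and -0.08 for the same compounds, and included the called genes Serpinh1 (PDS), Ppib and Sel1l (Phen-DC3). The other called genes, Fkbp10, Ern1 and Atf6, were not in the promoter table, and the difference between the 2 sets was not tested.

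Further genes of the same pathways were read from 7 lists of 153 symbols, of which 140 genes were tested. Under PDS 6 were higher and 1 lower, against 5.13% and 2.96% of all genes, so the lists were not called more often than genes at large. In the PERK and ATF4 arm (15 tested) Vldlr, a lipoprotein receptor, rose to 41.6 ± 1.00 CPM in PDS, against 21.8 ± 1.81 CPM in controls (log2 change 0.94 ± 0.12, adjusted p = 2.6e-05), and Atf5, a transcription factor of the stress response, fell (-0.33 ± 0.09, adjusted p = 0.018). Ero1a, the oxidase that recharges disulfide isomerases, rose to 141 ± 3.35 CPM in PDS, against 107 ± 4.81 CPM in controls (0.41 ± 0.07, adjusted p = 0.0014), as the only call among 28 further folding enzymes. P4ha2, a catalytic subunit of the collagen prolyl hydroxylase that pairs with P4hb, rose to 348 ± 9.74 CPM in PDS, against 265 ± 14.5 CPM in controls (0.39 ± 0.07, adjusted p = 0.00067), the only call among 12 genes of collagen modification. Among 23 export and retrieval genes, Tfg (0.58 ± 0.11), Kdelr3, a receptor that returns chaperones to the ER (0.35 ± 0.10), and Sec24a (0.44 ± 0.13) rose. None of 10 sensor regulators, 24 degradation genes and 28 translocon genes was called, and all 7 calls held with the length correction.

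Under Phen-DC3, 7 of the 140 were higher and 5 lower, against 2.19% and 5.82% of all genes. None of these 12 held with the length correction, which instead called Stt3a, a catalytic subunit of the oligosaccharyltransferase, higher (log2 change 0.42 with the correction, adjusted p = 0.02, and 0.01 without it, adjusted p = 0.9, edgeR); this gene was named after its values were seen. The translocon genes Sec61g (0.41), Ssr4 (0.38) and Ost4 (0.46), the calcium-binding Sdf4 (0.31), Tor1a (0.28) and Creb3 (0.22) were among those that rose, with edgeR adjusted p of 0.02 to 0.036. Sec16a (-0.50), Sec24b (-0.50), Uggt1, the folding sensor of glycoproteins (-0.37), Edem3 (-0.40) and Copa (-0.23) fell, with edgeR adjusted p of 0.011 to 0.042. Braco-19 gave none of 140, and none in the PERK and ATF4 arm was called under Phen-DC3 or Braco-19.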

How the data were processed

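Counts per gene were read as deposited: one table of whole-number counts, not normalized, for 18 libraries. Per the submitters' processing notes, CASAVA, HISAT2 and featureCounts 1.5.0-p3 were used; the sources used here give no genome build, annotation or strand setting, so reads of a gene and of an antisense neighbour cannot be told apart. Gene positions are those of the count table and promoter positions those of GRCr8.

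The 32 genes, the further lists and the tests were chosen with earlier results of these data known. All 32 genes are named with their values under PDS and Phen-DC3, while under Braco-19 and in the other comparisons some are given only by count or range. Of each further list, up to 3 genes per compound with the smallest p among those called are named. Genes were filtered by expression per group (14184 of 33898 kept), scaled by TMM and fitted with 1 mean per group over all 18 libraries (edgeR 4.0.16, robust quasi-likelihood F-test, 12 residual degrees of freedom before moderation, R 4.3.3), with Benjamini-Hochberg adjustment over all genes. Standard errors are the log2 change divided by the square root of F, and 95% intervals are not adjusted for the number of genes. The scripts were tested on simulated data. The length correction used a lowess trend (span 0.3) of log2 CPM on log2 gene length per library as an offset. DESeq2, other scalings and filters, left-out libraries and a replicate block were the alternatives. Total counts of 15715121 to 18369443 per library and 3 libraries per group limit the precision. No 2 libraries agreed within sampling noise (chi-square per gene of at least 4.12 within groups).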

Additional observations from a re-analysis of the deposited data

Results flagged for a closer look

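For 13 of the 32 genes the change under PDS differed from that under Phen-DC3, and for 9 it differed from that under Braco-19, by the test of the difference itself (edgeR, adjusted p under 0.05 over all genes). Between PDS and Phen-DC3 the difference in log2 change was 0.61 for Atf6, 0.89 for Ern1, 0.37 for Eif2ak3, 0.35 for Hsp90b1, 0.66 for Dnajb9, 0.39 for Canx, 0.41 for Sel1l, 0.26 for Edem1 and 0.33 for Sec24d. It was -0.88 for Sdf2l1, -0.34 for Ppib, -0.36 for Fkbp10 and -0.72 for Serpinh1. Between PDS and Braco-19 it was 0.53 for Atf6, 0.38 for Hsp90b1, 0.76 for Dnajb9, 0.43 for Dnajc3, 0.43 for Canx, 0.36 for Edem1, 0.38 for Ssr1, -0.31 for Fkbp10 and -0.75 for Serpinh1. Each difference also takes in the gap between the control groups, and the part of that gap was not tested. Groups of 3 libraries are too small to look for single libraries that stand apart. The differences from Phen-DC3 run with gene length (Spearman's rho 0.64 across the 32 genes and 0.37 across all genes), and with the length correction Sel1l had 0.01, Canx 0.10, Eif2ak3 0.12 and Ppib -0.13, while Serpinh1 had -0.69 and Dnajb9 0.64.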

How the results depend on the processing

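Under RLE size factors and the filter of 1 CPM in 3 libraries, counts of called genes stayed within 1.5 times the counts reported, with 1 exception. Over the whole table, Phen-DC3 minus Braco-19 gave 2 higher and 2 lower with RLE, against 2 and 5 with TMM. Upper-quartile factors gave 2 higher in place of 1 under Phen-DC3, moved the median of all genes to 0.11 between the Phen-DC3 and Braco-19 controls, against 0.00 with TMM, and gave 575 higher and 527 lower genes under PDS over the whole table, against 728 and 420 with TMM. With no low-count filter, PDS gave 1 lower and PDS minus Phen-DC3 gave 5 higher, against 433 and 1345 of all 21605 genes.

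A minimum log2 change of 0.5 left 0 of the 32 under each compound and in each difference between compounds, 0 lower for Phen-DC3 controls against PDS controls, 6 higher and 11 lower for Braco-19 controls against PDS controls, and 10 higher and 6 lower for Phen-DC3 controls against Braco-19 controls. Over all 14184 genes that minimum left 33 higher and 14 lower under PDS. It left 3813 and 3282 for Braco-19 controls against PDS controls, and 2776 and 3164 for Phen-DC3 controls against Braco-19 controls. The length correction gave 0 higher and 0 lower under Phen-DC3, 2 lower for Phen-DC3 controls against PDS controls and 3 higher for PDS minus Phen-DC3. Over all genes it gave 22 higher and 25 lower, 182 lower, and 964 higher in that order.

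Fitting only the groups compared gave 3 higher under PDS, 0 higher and 0 lower under Phen-DC3, 3 lower under Braco-19, 0 lower for Phen-DC3 controls against PDS controls and 4 higher for PDS minus Phen-DC3. Over all genes those fits gave 987 higher, 1 higher and 0 lower, 348 lower, 2 lower, and 1132 higher in that order. DESeq2 gave 2 higher under PDS, 5 higher under Phen-DC3, 1 lower under Braco-19, and 4 higher and 3 lower for Phen-DC3 controls against PDS controls. Over all genes it gave 811 higher, 836 higher, 145 lower, and 1025 higher and 574 lower in that order. Set against the PDS controls, Braco-19 gave 9 higher and 19 lower, against 5205 and 4806 of all 14184 genes. Set against the Phen-DC3 controls it gave 8 higher and 20 lower, against 4785 and 4577 of all genes. The cause of these shifts was not tested.

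Replicate numbers are shared between groups, but same-numbered libraries of a compound and its controls did not deviate together (correlations of -0.25 to 0.07). With 3 libraries per group these correlations cannot show whether such libraries share an animal or culture. Libraries of different control groups were not set against each other. The replicate block gave 1 lower under PDS, 0 higher and 0 lower under Phen-DC3, 2 lower for Phen-DC3 controls against PDS controls, 2 higher and 2 lower for PDS minus Phen-DC3, and 1 higher and 1 lower for PDS minus Braco-19. The replicate block with the length correction gave 1, 0 and 0, 3, 0 and 2, and 3 and 1 for the same counts. Over all genes the same counts were 209, 1 and 0, 149, 805 and 356, and 384 and 277 with the block. They were 326, 1 and 0, 122, 385 and 311, and 581 and 481 with the block and the length correction.

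Leaving out 1 library gave 0 to 1 higher and 0 to 1 lower under PDS, 0 to 6 higher and 0 to 8 lower under Phen-DC3, and 0 under Braco-19 and for Phen-DC3 minus Braco-19. For Phen-DC3 controls against PDS controls it gave 0 to 7 higher and 0 to 3 lower, against 0 to 1682 and 0 to 1058 over all genes. For PDS minus Phen-DC3 it gave 3 to 11 higher and 2 to 6 lower, against 984 to 2416 and 463 to 1802. For PDS minus Braco-19 it gave 2 to 8 higher and 1 to 3 lower, against 493 to 1135 and 403 to 1218. It gave 12 higher and 18 lower for Braco-19 controls against PDS controls in each case, and 18 to 19 higher and 10 lower for Phen-DC3 controls against Braco-19 controls. A search of protein ends for ER retrieval signals was not run, since no protein sequences were used here.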

Other observations

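The collagen helpers and a collagen transcript differed in opposite directions between the baselines. Col1a1, which encodes a chain of type I collagen, averaged 4855 CPM in Braco-19 controls and 1356 CPM in PDS controls, while Serpinh1 averaged 580 ± 87.8 CPM in Braco-19 controls and 1626 ± 56.1 CPM in PDS controls, and Ppib 278 ± 5.86 CPM in Braco-19 controls and 653 ± 24.7 CPM in PDS controls (SD, n = 3). These levels are not corrected for length, and this comparison ran with gene length (Spearman's rho 0.50 across all genes). With the length correction all 3 collagen helpers were still called lower, with a median log2 difference of -0.93, against -1.23 without it. No corrected value is given for Col1a1, and the part of gene length in the opposite directions was not tested. The pentamer CCACG, which both ER stress elements share, was present on either strand in 22 of the 24 promoters (91.7%), against 32.5% of all promoters. This share too comes from a list chosen for its part in the response, and is not a test.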
